A study of Mus musculus with 10 samples.

Results

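The genes described here encode the sensors of low oxygen, the enzymes and transporters that carry glucose to lactate, and known targets of the hypoxia-inducible factors (HIF). The list names 43 genes by their role in these pathways and was chosen with earlier results of these data known. Each gene was read through the probeset of its own symbol with the highest mean over the 10 arrays. Of the 43 genes, 41 had such a probeset, among 19938 genes with a probeset of their own, and Gpi1 and Eno1 were not analysed here. RNA came from the stromal layer of a leukemia co-culture, wild-type mouse embryonic fibroblasts (MEFs) that had been irradiated with 1000 rad so that they no longer divided, in medium with murine IL-3 at 10 ng/ml. After 9 days of treatment, MEFs + DMSO (the solvent), MEFs + nilotinib (an inhibitor of the Abl kinase, at 16 nM) and MEFs + ALL + nilotinib were read on 3 arrays each, and MEFs + ALL + DMSO on 1. The ALL cells were 8093 cells, a murine line of precursor B acute lymphoblastic leukemia with a Bcr/Abl transgene, and they sat behind a Transwell membrane that divided them from the MEFs. With nilotinib, the ALL cells that remained on day 9 had lived through the drug, whereas with DMSO they had grown without it, so the co-cultures differed in their leukemia cells as well as in the drug. Each array of a triplicate came from its own dish of plated MEFs, so a p-value is against dish-to-dish spread.

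Cells that lack oxygen switch from respiration to glycolysis. The prolyl hydroxylases encoded by Egln1 and Egln3 mark the HIF alpha subunits (Hif1a, Epas1) for destruction through Vhl when oxygen is present. Without oxygen the alpha subunits are spared, pair with Arnt and switch on glycolytic enzymes, the lactate exporter Slc16a3, the kinase Pdk1 that keeps pyruvate out of mitochondria, and Egln3 itself. The alpha subunits are controlled mainly as proteins, which an RNA array does not read.

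HIF binds a short core motif, ACGTG or GCGTG. The 250 bases before the first listed start are shown for the 2 genes that rose in MEFs + ALL + nilotinib, Slc16a3 and Pfkl, and for the 3 other genes with the largest differences in that group, Bnip3, Pdk1 and Egln3. The sequences are those of RefSeq (GRCm38.p6), written 5′ to 3′ on the strand of the gene, with each motif on either strand in capitals. The window of Slc16a3 is chr11:120948817-120949066 on the plus strand and lies inside the gene's span, before a start 583 bases from the outermost one. The windows of Pfkl (chr10:78009808-78010057), Bnip3 (chr7:138909507-138909756) and Egln3 (chr12:54203875-54204124), all on the minus strand, lie directly before the gene. That of Pdk1 is chr2:71872974-71873223 on the plus strand.
Slc16a3: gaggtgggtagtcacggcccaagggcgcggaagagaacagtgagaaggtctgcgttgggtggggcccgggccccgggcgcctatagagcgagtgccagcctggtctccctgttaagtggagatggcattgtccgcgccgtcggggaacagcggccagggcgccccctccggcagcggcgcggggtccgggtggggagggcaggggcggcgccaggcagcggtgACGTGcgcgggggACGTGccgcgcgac
Pfkl: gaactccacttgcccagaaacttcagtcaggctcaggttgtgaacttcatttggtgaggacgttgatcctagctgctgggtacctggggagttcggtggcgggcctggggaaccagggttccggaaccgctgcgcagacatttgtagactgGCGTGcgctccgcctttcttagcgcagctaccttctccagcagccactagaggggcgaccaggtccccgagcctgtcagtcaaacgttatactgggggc
Bnip3: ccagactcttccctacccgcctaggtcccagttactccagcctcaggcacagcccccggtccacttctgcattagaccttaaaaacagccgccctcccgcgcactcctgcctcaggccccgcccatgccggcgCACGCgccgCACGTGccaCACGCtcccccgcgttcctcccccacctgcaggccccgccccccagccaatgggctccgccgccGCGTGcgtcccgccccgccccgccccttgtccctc
Pdk1: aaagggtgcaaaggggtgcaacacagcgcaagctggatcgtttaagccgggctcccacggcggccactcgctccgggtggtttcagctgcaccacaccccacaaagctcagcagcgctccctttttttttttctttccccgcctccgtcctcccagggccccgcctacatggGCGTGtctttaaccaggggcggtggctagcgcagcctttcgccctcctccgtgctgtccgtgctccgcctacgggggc
Egln3: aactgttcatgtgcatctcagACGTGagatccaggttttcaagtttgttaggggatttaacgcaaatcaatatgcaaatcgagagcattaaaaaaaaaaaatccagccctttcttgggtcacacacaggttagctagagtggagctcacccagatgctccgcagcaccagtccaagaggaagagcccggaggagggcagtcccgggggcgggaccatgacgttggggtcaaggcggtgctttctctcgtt
Slc16a3 held 2 matches, 27 and 14 bases before its start. Bnip3 held 5, of which the pair that overlaps in CACGTG is the same 6 letters read on both strands, and that word is also the E-box read by other factors. Pfkl held 1 match at 99 bases, Pdk1 1 at 78 bases and Egln3 1 at 229 bases before the start. Over all members with a window, 30 of 36 genes (83.3%) had the motif before at least 1 listed start, against 50.3% of 15006 protein-coding genes with a probeset of their own. Before the first listed start alone, as in the windows shown, it stood in 25 of 36 members (69.4%) and in 46.7% of those genes. By window the motif stood in 73.1% of 52 windows of members and in 38.6% of all 32851 windows. The latter include windows of genes that do not code for protein. The members were listed as known HIF targets and genes of the pathway, so all these shares describe the list and test nothing. A match is a run of letters, and whether HIF bound there was not measured.

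The median log2 signal of an array lay between 6.94 and 7.01, and the MEFs + ALL + DMSO array stood apart from all others on the leading principal component. The methods state that 2 further samples of that group were left out because ALL cells had contaminated them, and the remaining array also carried B lymphoid signal: 14 of 15 measured B lymphoid and leukocyte markers were higher there than in MEFs + DMSO, with a median log2 difference of 2.21 and Igll1, a surrogate light chain gene of precursor B cells, at 4.18. In MEFs + ALL + nilotinib 0 of these 15 markers passed, with a median of -0.05 and a summed log2 signal of 107 to 109 on the 3 arrays, as in MEFs + DMSO (107 to 109) and against 139 in MEFs + ALL + DMSO. All 11 fibroblast markers were measured. In MEFs + ALL + DMSO over MEFs + DMSO 2 of them were higher (Lum by 0.65, Thy1 by 0.59) and 1 lower (Col1a2 by -0.66, from a mean log2 signal of 13.24), with a median of -0.18. Replicate 2 of MEFs + ALL + nilotinib stood apart on the next component. In bulk RNA, fewer cells of a type and less RNA per cell cannot be told apart.

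**Figure D1:**
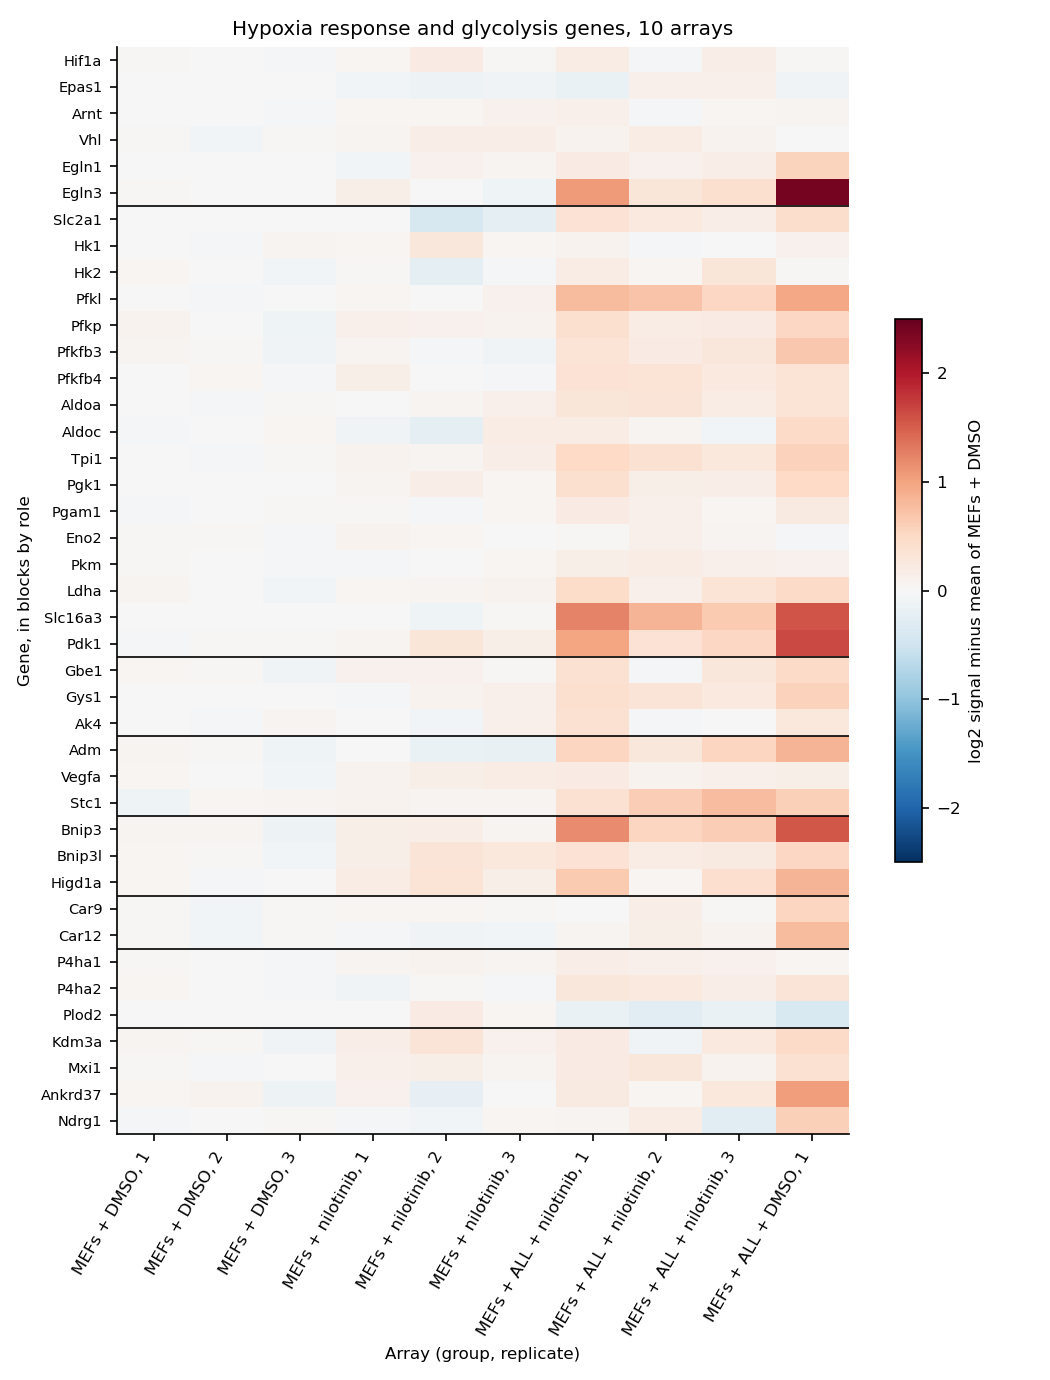
Log2 signal of the 41 genes (rows, in blocks by role from oxygen sensing at the top to other HIF targets at the bottom) on each of the 10 arrays (columns), as the difference from the mean of the 3 MEFs + DMSO arrays, red for higher and blue for lower. Most rows are red in the 3 MEFs + ALL + nilotinib arrays and redder in the single MEFs + ALL + DMSO array, where Egln3 reaches 2.39, while Plod2 is blue in both groups.

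The first comparison asks whether stromal cells that shared medium with drug-treated ALL cells differed from stromal cells alone. Slc16a3, the exporter of lactate, and Pfkl, the liver-type phosphofructokinase that commits sugar to glycolysis, rose in MEFs + ALL + nilotinib over MEFs + DMSO. Slc16a3 rose by 0.92 on the log2 scale (SE 0.13, 1.89-fold, n = 3 per group, adjusted p = 0.0317 from limma) and Pfkl by 0.67 (SE 0.08, 1.59-fold, adjusted p = 0.0188 from limma). They were 2 of 41 members (4.88%) against 0.503% of 35557 probesets called higher, and 0 members were called lower against 0.124%. Both calls ended when any single MEFs + DMSO replicate was left out (0 members called), when only the compared arrays were fitted, and under a replicate block. That of Slc16a3 also ended without replicate 2 of MEFs + ALL + nilotinib, and that of Pfkl without replicate 1.

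The log2 signals of Slc16a3, in order of replicate, were 8.78, 8.78 and 8.79 in MEFs + DMSO, 8.77, 8.69 and 8.82 in MEFs + nilotinib, 10.03, 9.63 and 9.45 in MEFs + ALL + nilotinib and 10.35 in MEFs + ALL + DMSO. The lowest co-culture array lay well above the highest array of MEFs cultured alone. For Pfkl they were 9.97, 9.91 and 9.97 in MEFs + DMSO, 9.99, 9.95 and 10.05 in MEFs + nilotinib, 10.73, 10.66 and 10.46 in MEFs + ALL + nilotinib and 10.91 in MEFs + ALL + DMSO, again with no overlap between co-cultured MEFs and MEFs alone. The 95% interval of the difference ran from 0.62 to 1.22 for Slc16a3 and from 0.49 to 0.85 for Pfkl.

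Around these the other members lay mostly above MEFs + DMSO without passing. For 27 of 41 members (65.9%) all 3 MEFs + ALL + nilotinib arrays lay above all 3 MEFs + DMSO arrays, against 14.1% of all probesets, and for Plod2 alone (2.44%) they lay below, against 10.6%. The list was chosen with earlier results of these data known, not drawn, so these shares describe it and test nothing. Among the 19938 genes, each read by its brightest probeset, the same shares were 16.3% and 11.7%, and 0.732% were called higher and 0.11% lower. At an unadjusted p under 0.05, limma gave 23 members higher (56.1%, against 9.5% of probesets) and 1 lower (2.44%, against 6.72%). The median log2 difference of the members was 0.19, where that of all probesets was 0.00, and the members ranged from -0.21 for Plod2 to 0.92 for Slc16a3. By role, the medians were 0.45 for the 3 secreted factors, 0.38 for the 3 mitochondrial genes and 0.27 for the 17 genes of glucose uptake, glycolysis and lactate. They were 0.21 for the 3 genes of glycogen and adenylate, 0.15 for the 4 other HIF targets and 0.13 for the 3 of collagen modification. For the 6 genes of oxygen sensing the median was 0.11, and for the 2 of pH it was 0.08. Replicate 1 of MEFs + ALL + nilotinib held the highest of the 3 values for 27 of the 41 members, and without it the median of the members was 0.16. Of the 15 B lymphoid and leukocyte markers 0 passed, as given above, with differences from -0.28 to 0.19. Of the 11 fibroblast markers 1 was called higher (Thy1, 0.60) and 0 lower, 7 differed by less than 0, and the median was -0.05.

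**Figure D2:**
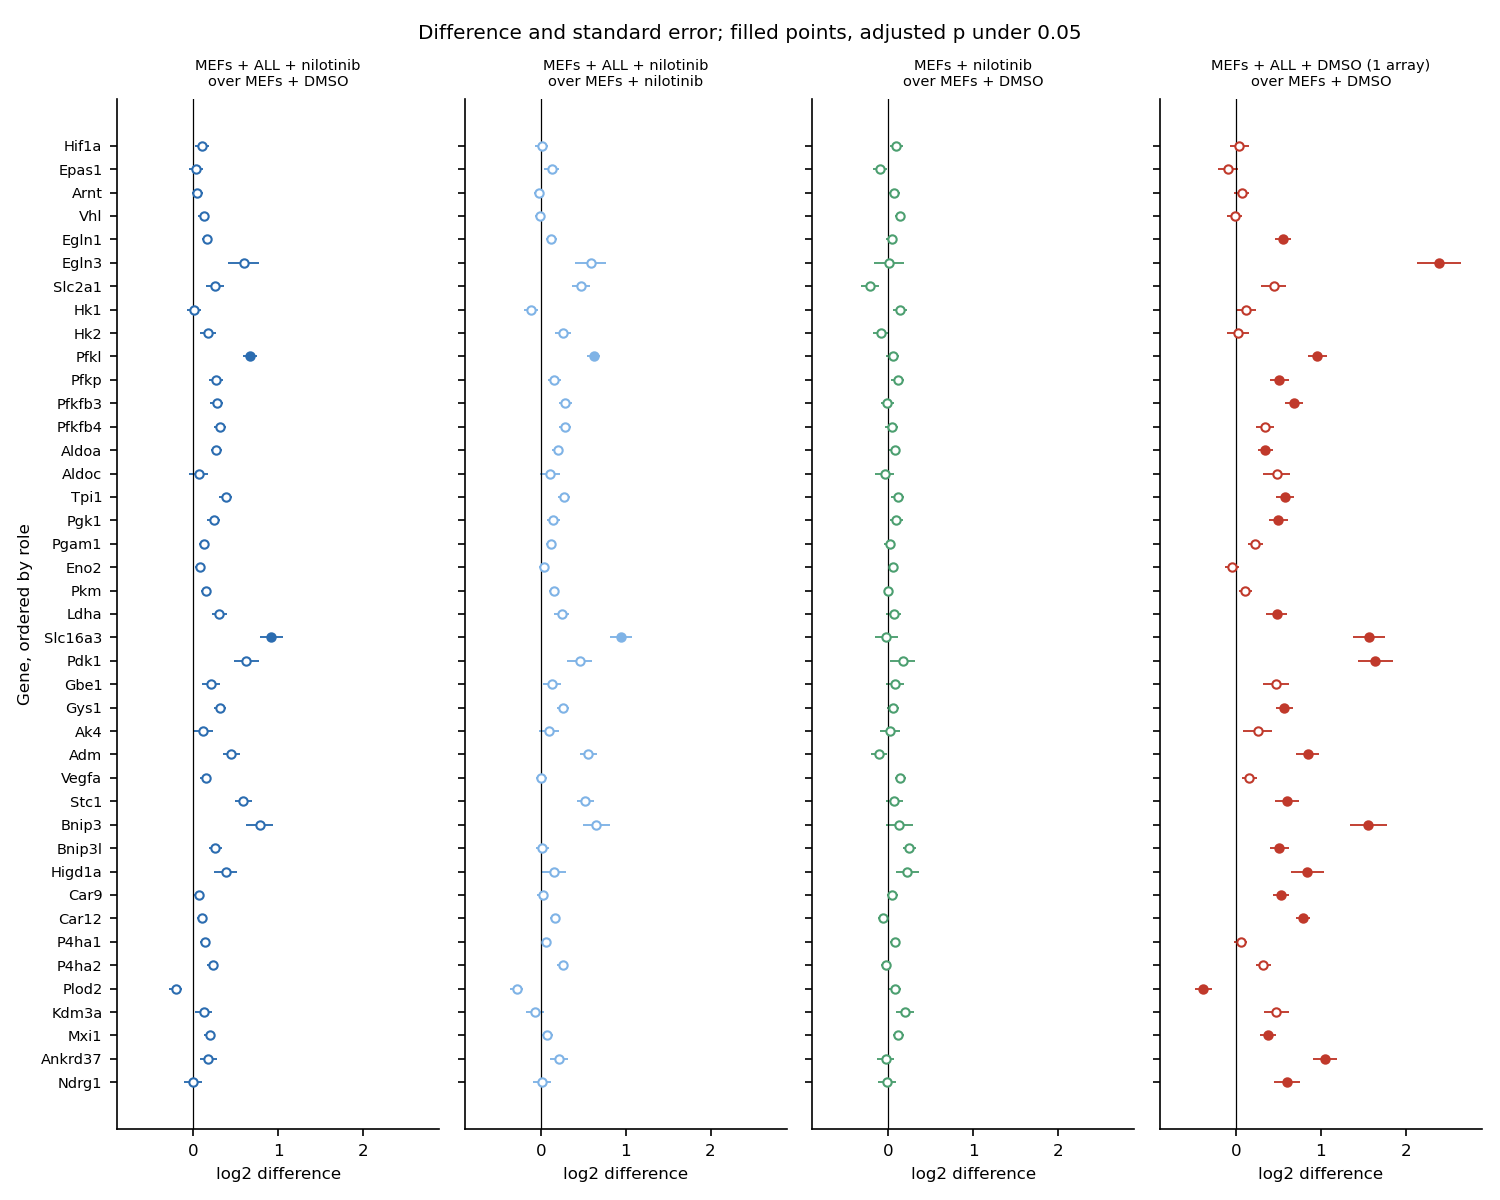
Log2 difference with its standard error for each of the 41 genes (rows, ordered by role) in 4 comparisons (panels), with filled points where limma's adjusted p was under 0.05. Slc16a3 and Pfkl are filled in the panels of MEFs + ALL + nilotinib over MEFs + DMSO and over MEFs + nilotinib, none is filled in that of MEFs + nilotinib over MEFs + DMSO, and 23 are filled in that of the single MEFs + ALL + DMSO array.

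MEFs + nilotinib over MEFs + DMSO asks whether the drug alone, without ALL cells, went with a difference in the stroma. Limma called 0 of 41 members between MEFs + nilotinib and MEFs + DMSO, as it called 0% of all probesets in either direction, and the lowest adjusted p among members was 0.368, for Bnip3l, which directs mitochondria to autophagy. At an unadjusted p under 0.05 there was 1 member, Bnip3l with a difference of 0.24 (2.44%, against 6.77% of probesets higher and 4.44% lower). Slc16a3 differed by -0.02 with a 95% interval from -0.33 to 0.28, and Pfkl by 0.05 with an interval from -0.13 to 0.23, intervals that end below the differences seen with ALL cells. The median of the members was 0.06, and 13 of 41 (31.7%) lay wholly above MEFs + DMSO against 13.6% of probesets, while Epas1 alone (2.44%) lay wholly below against 7.05%. The glucose transporter gene Slc2a1 had the lowest difference, -0.22 (adjusted p = 0.473 from limma).

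With the drug in both arms, MEFs + ALL + nilotinib over MEFs + nilotinib, the same 2 members were called higher. Slc16a3 rose by 0.94 (SE 0.13, adjusted p = 0.0444 from limma) and Pfkl by 0.62 (SE 0.08, adjusted p = 0.0354), 4.88% of members against 0.149% of probesets, and 0 members were called lower against 0.0366%. Both were lost when any single MEFs + nilotinib replicate was left out, or replicate 2 of MEFs + ALL + nilotinib, and Pfkl also without replicate 1 of the latter. Both ended with only the groups compared and under a replicate block, and Slc16a3 also with centring and with array weights. All 3 co-culture arrays lay above all 3 MEFs + nilotinib arrays for 22 members (53.7%, against 7.8% of probesets) and below for Plod2 (2.44%, against 6.62%). The comparison shares its co-culture arrays with the one over MEFs + DMSO, so both rest on the same 3 dishes. Adm, the gene of the vasodilator adrenomedullin, differed by 0.56 here and by 0.45 over MEFs + DMSO, and Slc2a1 by 0.47 and 0.25, with adjusted p from 0.0899 to 0.281 in limma.

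The single MEFs + ALL + DMSO array shows the stroma beside ALL cells that were not treated. In limma, which lends this lone array the spread of the other groups, 22 of 41 members (53.7%) were higher than in MEFs + DMSO against 6.67% of probesets, and 1 (2.44%) was lower against 3.59%. Leaving out 1 MEFs + DMSO replicate at a time, any of the 3, left 13 to 15 members called. Adm, Ankrd37, Bnip3, Car9, Car12, Egln1, Egln3, Gys1, Pdk1, Pfkfb3, Pfkl, Slc16a3 and Tpi1 passed under all 10 alternatives of this comparison, and the other 10 calls, among them Plod2, ended under at least 3. The median difference of the members was 0.48 where that of all probesets was -0.07. These differences stand beside the B lymphoid signal of that array, and the part of leukemia cell RNA in them was not tested. By role, calls were 2 of 6 for oxygen sensing, 9 of 17 for glycolysis and lactate, 1 of 3 for glycogen and adenylate, 2 of 3 for secreted factors, 3 of 3 for mitochondria, 2 of 2 for pH and 3 of 4 for other HIF targets, and the fall was in collagen modification.

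The contrast between the co-cultures, MEFs + ALL + nilotinib over MEFs + ALL + DMSO, had 5 members called lower (12.2%, against 3.76% of probesets) and 0 higher (against 0.582%). The test of the difference itself, the effect of ALL cells under nilotinib minus their effect under DMSO, also called 5 members lower (12.2%, against 3.55%) and 0 higher (against 0.399%). These were Egln3, Pdk1, Ankrd37, Car12 and Car9 in both, 1 from oxygen sensing, 1 from the glycolytic block, 1 of the other targets and both carbonic anhydrases. All of it rests on the same single array, and among B lymphoid markers 13 of 15 were lower in the same comparison, a part that was not tested. For Slc16a3 and Pfkl the differences of effects were -0.62 (adjusted p = 0.189) and -0.34 (adjusted p = 0.22 from limma), so a smaller effect under nilotinib was not shown for them.

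**Figure D3:**
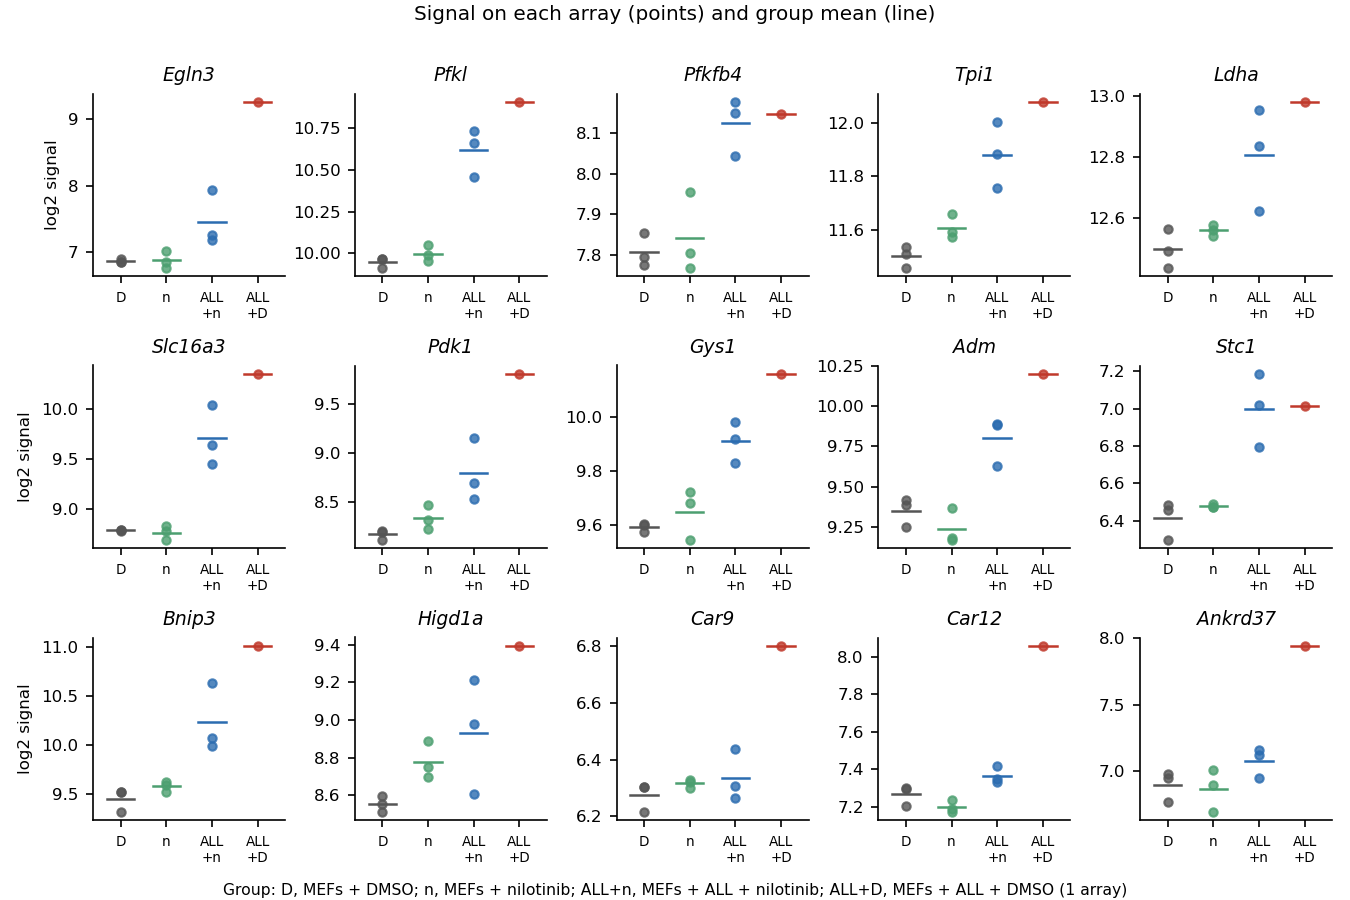
Log2 signal on each array (points) with group means (lines) for the 12 genes with the largest difference between MEFs + ALL + nilotinib and MEFs + DMSO and for Car9, Car12 and Ankrd37, each panel with its own axis. In Slc16a3 and Pfkl the MEFs + ALL + nilotinib arrays stand clear of both groups of MEFs alone, while in Car9, Car12 and Ankrd37 they lie near them and only the single MEFs + ALL + DMSO array is high.

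Among the genes of oxygen sensing, no HIF subunit passed in any comparison, while both hydroxylases passed in MEFs + ALL + DMSO. Egln3 had log2 signals of 6.90, 6.85 and 6.85 in MEFs + DMSO, 7.01, 6.85 and 6.76 in MEFs + nilotinib, 7.94, 7.18 and 7.26 in MEFs + ALL + nilotinib and 9.26 in MEFs + ALL + DMSO. The MEFs + ALL + DMSO array was above all others, and replicate 1 of MEFs + ALL + nilotinib stood away from the other dishes of its group. Its difference was 2.39 (SE 0.26, 5.26-fold, adjusted p = 5.84e-04 from limma) in MEFs + ALL + DMSO, the largest of the members, and 0.59 (SE 0.18, adjusted p = 0.176) in MEFs + ALL + nilotinib, or 0.35 without replicate 1. The effect of ALL cells on Egln3 was lower under nilotinib by -1.81 (SE 0.31, adjusted p = 0.0143 from limma). This call passed under all 15 alternatives tried. None of them left out the single MEFs + ALL + DMSO array with its B lymphoid signal, so they do not test the part of that array.

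Egln1, the main hydroxylase at normal oxygen, had log2 signals of 9.81, 9.81 and 9.81 in MEFs + DMSO, 9.75, 9.92 and 9.88 in MEFs + nilotinib, 10.02, 9.92 and 9.97 in MEFs + ALL + nilotinib and 10.36 in MEFs + ALL + DMSO. Its single high array was 0.55 above MEFs + DMSO (adjusted p = 0.00691 from limma), and the MEFs + ALL + nilotinib arrays lay just above all arrays of MEFs alone with a difference of 0.16. Hif1a differed by 0.10 in MEFs + ALL + nilotinib, with a 95% interval from -0.08 to 0.28, and by 0.04 in MEFs + ALL + DMSO, from -0.22 to 0.29. Epas1, Arnt and Vhl differed by -0.10 to 0.12 in the same comparisons, and none passed.

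At the upper steps of glycolysis isozymes can be set side by side, though the difference between them was not tested. Of the phosphofructokinases, Pfkp, the platelet type, had log2 signals of 9.85, 9.78 and 9.66 in MEFs + DMSO, 9.89, 9.86 and 9.86 in MEFs + nilotinib, 10.17, 9.95 and 9.96 in MEFs + ALL + nilotinib and 10.27 in MEFs + ALL + DMSO, a difference of 0.27 (adjusted p = 0.174 from limma) in MEFs + ALL + nilotinib where Pfkl had 0.67. In MEFs + ALL + DMSO both passed, Pfkl at 0.96 and Pfkp at 0.51. Through the probesets used, the hexokinases, which trap glucose in the cell, passed nowhere. Hk1 differed by 0.01 and Hk2 by 0.17 in MEFs + ALL + nilotinib and by 0.12 and 0.02 in MEFs + ALL + DMSO. A dimmer probeset of Hk1 gave 0.45 in MEFs + ALL + DMSO (adjusted p = 0.0118), so its probesets disagree there.

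Pfkfb3 and Pfkfb4 make fructose 2,6-bisphosphate, the activator of phosphofructokinase. The log2 signals of Pfkfb3 were 8.84, 8.79 and 8.67 in MEFs + DMSO, 8.84, 8.74 and 8.68 in MEFs + nilotinib, 9.11, 8.97 and 9.05 in MEFs + ALL + nilotinib and 9.45 in MEFs + ALL + DMSO. Those of Pfkfb4 were 7.79, 7.85 and 7.77 in MEFs + DMSO, 7.96, 7.80 and 7.77 in MEFs + nilotinib, 8.18, 8.15 and 8.04 in MEFs + ALL + nilotinib and 8.15 in MEFs + ALL + DMSO. In both genes the co-culture arrays lay above all arrays of MEFs alone. Pfkfb3 passed in MEFs + ALL + DMSO (0.68, adjusted p = 0.00529 from limma) and Pfkfb4 did not (0.34, adjusted p = 0.0697).

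In the middle of the pathway, Aldoa, the aldolase of most tissues, had log2 signals of 12.12, 12.09 and 12.16 in MEFs + DMSO, 12.13, 12.19 and 12.25 in MEFs + nilotinib, 12.43, 12.44 and 12.31 in MEFs + ALL + nilotinib and 12.47 in MEFs + ALL + DMSO. Tpi1, the triose phosphate isomerase, had 11.51, 11.46 and 11.53 in MEFs + DMSO, 11.59, 11.57 and 11.66 in MEFs + nilotinib, 12.002, 11.88 and 11.76 in MEFs + ALL + nilotinib and 12.08 in MEFs + ALL + DMSO. For Pgk1, which makes the first ATP of the pathway, they were 11.77, 11.76 and 11.79 in MEFs + DMSO, 11.85, 11.93 and 11.82 in MEFs + nilotinib, 12.17, 11.93 and 11.94 in MEFs + ALL + nilotinib and 12.28 in MEFs + ALL + DMSO. All 3 genes lay higher on every MEFs + ALL + nilotinib array than on any MEFs + DMSO array, by 0.24 to 0.38 on average, and passed only in MEFs + ALL + DMSO, at 0.34, 0.58 and 0.50. Aldoc, the brain aldolase, overlapped between MEFs + ALL + nilotinib and MEFs + DMSO (difference 0.06). On the MEFs + ALL + DMSO array it lay above all other arrays, by 0.48 over MEFs + DMSO, and did not pass (adjusted p = 0.0933 from limma). Downstream, Pgam1 differed by 0.13, Eno2 by 0.08 and the pyruvate kinase gene Pkm by 0.15 in MEFs + ALL + nilotinib, and none of these passed in any comparison.

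At the fate of pyruvate stand Ldha, Pdk1 and Slc16a3. Ldha, which reduces pyruvate to lactate, had log2 signals of 12.57, 12.49 and 12.44 in MEFs + DMSO, 12.54, 12.56 and 12.58 in MEFs + nilotinib, 12.95, 12.62 and 12.84 in MEFs + ALL + nilotinib and 12.98 in MEFs + ALL + DMSO. Replicate 2 of MEFs + ALL + nilotinib lay just above the arrays of MEFs alone and the other co-culture arrays well above them. Pdk1 had 8.11, 8.20 and 8.19 in MEFs + DMSO, 8.23, 8.47 and 8.31 in MEFs + nilotinib, 9.15, 8.53 and 8.69 in MEFs + ALL + nilotinib and 9.81 in MEFs + ALL + DMSO, with replicate 1 of MEFs + ALL + nilotinib between its fellows and the MEFs + ALL + DMSO array. In MEFs + ALL + DMSO Ldha passed at 0.48 (adjusted p = 0.0437 from limma), Pdk1 at 1.64 and Slc16a3 at 1.57. In MEFs + ALL + nilotinib Ldha differed by 0.31 and Pdk1 by 0.62, with adjusted p of 0.157 and 0.11. The effect of ALL cells on Pdk1 was lower under nilotinib, by -1.19 (SE 0.25, adjusted p = 0.0397), and this call ended under 7 of 15 alternatives, which were centring and leaving out any MEFs + DMSO replicate, replicate 2 or 3 of MEFs + nilotinib or replicate 3 of MEFs + ALL + nilotinib. The difference of effects for Pdk1 rests on the single MEFs + ALL + DMSO array with its B lymphoid signal, which no alternative left out. Slc2a1, which brings glucose in, differed by 0.25 and 0.45 in MEFs + ALL + nilotinib and MEFs + ALL + DMSO and passed in neither.

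Of the glycogen and adenylate genes, Gys1, the glycogen synthase outside liver, had log2 signals of 9.60, 9.57 and 9.60 in MEFs + DMSO, 9.54, 9.68 and 9.72 in MEFs + nilotinib, 9.98, 9.92 and 9.83 in MEFs + ALL + nilotinib and 10.16 in MEFs + ALL + DMSO. The co-culture arrays lay above all others, and only the difference in MEFs + ALL + DMSO passed (0.57, adjusted p = 0.00914 from limma). The branching enzyme gene Gbe1 differed by 0.21 in MEFs + ALL + nilotinib. The mitochondrial adenylate kinase gene Ak4 differed by 0.12 (adjusted p = 0.676) through its brighter probeset and by 0.75 (adjusted p = 0.0275) through its dimmer one, which also passed in MEFs + ALL + DMSO at 1.11. By the rule for members the brighter probeset counts, and the sources used here do not give the locus that each was designed on.

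Of the 3 secreted factors, Adm and Stc1 passed in MEFs + ALL + DMSO and Vegfa did not. Adm had log2 signals of 9.42, 9.39 and 9.25 in MEFs + DMSO, 9.37, 9.18 and 9.17 in MEFs + nilotinib, 9.88, 9.63 and 9.89 in MEFs + ALL + nilotinib and 10.20 in MEFs + ALL + DMSO, with every co-culture array above every array of MEFs alone. Stc1, which encodes the secreted glycoprotein stanniocalcin, had 6.30, 6.46 and 6.48 in MEFs + DMSO, 6.49, 6.47 and 6.47 in MEFs + nilotinib, 6.80, 7.02 and 7.19 in MEFs + ALL + nilotinib and 7.01 in MEFs + ALL + DMSO, and here the MEFs + ALL + DMSO array lay within the range of MEFs + ALL + nilotinib. In MEFs + ALL + nilotinib Stc1 differed by 0.59 (SE 0.10, adjusted p = 0.0504 from limma), which missed the threshold of 0.05 narrowly, and Adm by 0.45. In MEFs + ALL + DMSO Adm passed at 0.85 and Stc1 at 0.60. Vegfa, the vascular growth factor and a standard HIF target, differed by 0.14 (95% interval 0.00 to 0.29) and by 0.15 (-0.05 to 0.36) and did not pass.

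All 3 mitochondrial genes passed in MEFs + ALL + DMSO. Bnip3, which marks mitochondria for autophagy, had log2 signals of 9.53, 9.52 and 9.32 in MEFs + DMSO, 9.59, 9.63 and 9.52 in MEFs + nilotinib, 10.64, 9.99 and 10.08 in MEFs + ALL + nilotinib and 11.02 in MEFs + ALL + DMSO. Bnip3l, its relative, had 11.20, 11.18 and 11.08 in MEFs + DMSO, 11.30, 11.48 and 11.42 in MEFs + nilotinib, 11.51, 11.35 and 11.38 in MEFs + ALL + nilotinib and 11.67 in MEFs + ALL + DMSO. The co-culture arrays of Bnip3 were above all arrays of MEFs alone, whereas the MEFs + ALL + nilotinib arrays of Bnip3l overlapped with MEFs + nilotinib. Higd1a, a small protein of the respiratory chain, had 8.59, 8.51 and 8.56 in MEFs + DMSO, 8.75, 8.89 and 8.70 in MEFs + nilotinib, 9.21, 8.60 and 8.98 in MEFs + ALL + nilotinib and 9.39 in MEFs + ALL + DMSO, with replicate 2 of MEFs + ALL + nilotinib below all arrays of MEFs + nilotinib. The differences in MEFs + ALL + DMSO were 1.56, 0.51 and 0.84, and in MEFs + ALL + nilotinib 0.78, 0.26 and 0.38 with adjusted p from 0.0776 to 0.234 in limma. The second probeset of Bnip3 gave 0.53 and 1.38, the latter past the test. The second of Higd1a gave 0.04 and 0.19 and did not pass, so the call for Higd1a rests on 1 of its 2 probesets.

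The membrane carbonic anhydrases Car9 and Car12, which handle the acid that glycolysis makes, were high on 1 array. Car9 had log2 signals of 6.30, 6.21 and 6.30 in MEFs + DMSO, 6.32, 6.33 and 6.30 in MEFs + nilotinib, 6.26, 6.44 and 6.31 in MEFs + ALL + nilotinib and 6.80 in MEFs + ALL + DMSO. Car12 had 7.30, 7.20 and 7.29 in MEFs + DMSO, 7.23, 7.17 and 7.19 in MEFs + nilotinib, 7.33, 7.42 and 7.35 in MEFs + ALL + nilotinib and 8.06 in MEFs + ALL + DMSO. MEFs + ALL + nilotinib overlapped with MEFs + DMSO for Car9 and lay slightly above it for Car12. Against MEFs + DMSO the MEFs + ALL + DMSO array was higher by 0.53 and 0.79 (adjusted p = 0.0092 and 5.33e-04 from limma), and the effect of ALL cells was lower under nilotinib by -0.51 and -0.62 (adjusted p = 0.045 and 0.0104). The interaction of Car12 passed under all 15 alternatives and that of Car9 under 5 of 15, with each MEFs + DMSO and each MEFs + nilotinib replicate among those that ended it when left out. No alternative left out the single MEFs + ALL + DMSO array, on which both interactions rest.

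Among the enzymes that modify collagen, Plod2, the lysyl hydroxylase that sets its cross-links and itself a known HIF target, ran opposite to most members. Its log2 signals were 12.26, 12.23 and 12.25 in MEFs + DMSO, 12.23, 12.45 and 12.29 in MEFs + nilotinib, 12.08, 11.96 and 12.07 in MEFs + ALL + nilotinib and 11.86 in MEFs + ALL + DMSO. Every co-culture array lay below every array of MEFs alone, by -0.21 (adjusted p = 0.214 from limma) in MEFs + ALL + nilotinib and by -0.39 (adjusted p = 0.0486) in MEFs + ALL + DMSO, where it fell. The prolyl hydroxylase genes P4ha1 and P4ha2 differed by 0.13 and 0.23 in MEFs + ALL + nilotinib and by 0.05 and 0.32 in MEFs + ALL + DMSO, and neither passed.

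Of the remaining targets, Mxi1, an antagonist of Myc, had log2 signals of 7.99, 7.91 and 7.97 in MEFs + DMSO, 8.09, 8.11 and 8.02 in MEFs + nilotinib, 8.17, 8.23 and 8.04 in MEFs + ALL + nilotinib and 8.33 in MEFs + ALL + DMSO. Ankrd37, an ankyrin repeat protein, had 6.94, 6.98 and 6.77 in MEFs + DMSO, 7.01, 6.69 and 6.90 in MEFs + nilotinib, 7.12, 6.95 and 7.15 in MEFs + ALL + nilotinib and 7.94 in MEFs + ALL + DMSO. Ndrg1, a stress-response gene, had 8.60, 8.62 and 8.65 in MEFs + DMSO, 8.60, 8.56 and 8.67 in MEFs + nilotinib, 8.69, 8.81 and 8.36 in MEFs + ALL + nilotinib and 9.22 in MEFs + ALL + DMSO. All 3 were highest on the MEFs + ALL + DMSO array, by 0.38, 1.05 and 0.60 over MEFs + DMSO, and all passed there. In MEFs + ALL + nilotinib Ankrd37 and Ndrg1 overlapped with MEFs + DMSO, and the effect of ALL cells on Ankrd37 was lower under nilotinib by -0.84 (SE 0.18, adjusted p = 0.0383 from limma). That call ended under 7 of 15 alternatives, on leaving out any MEFs + DMSO or any MEFs + ALL + nilotinib replicate, or replicate 3 of MEFs + nilotinib. No alternative left out the single MEFs + ALL + DMSO array with its B lymphoid signal, on which the call rests. Kdm3a, a histone demethylase, differed by 0.48 (adjusted p = 0.0769) in MEFs + ALL + DMSO.

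A wider list of 75 genes of the same pathways, of which 68 had a probeset, had a smaller median in both co-cultures. Members and wider list were both chosen with earlier results of these data known, so the gap between their medians describes the lists and tests nothing. In MEFs + ALL + nilotinib over MEFs + DMSO 2 of 68 were higher (2.94%, against 0.503% of probesets) and 0 lower, with a median of 0.04, and 23 (33.8%, against 14.1%) lay wholly above MEFs + DMSO. Both belong to the handling of pyruvate and lactate. Slc16a1, a monocarboxylate transporter that carries lactate either way, had log2 signals of 8.51, 8.55 and 8.50 in MEFs + DMSO, 8.62, 8.68 and 8.68 in MEFs + nilotinib, 8.91, 8.86 and 8.89 in MEFs + ALL + nilotinib and 10.33 in MEFs + ALL + DMSO. It rose by 0.37 (SE 0.05, adjusted p = 0.0337 from limma). Pdp1, the phosphatase that reverses the Pdk kinases, rose by 0.47 (SE 0.06, adjusted p = 0.0266) and Pdk3 differed by 0.38 (adjusted p = 0.0505). With the drug in both arms, over MEFs + nilotinib, 0 of the 68 were called, against 0.149% of probesets higher and 0.0366% lower. The lowest adjusted p there was 0.0664 from limma. The alternatives were not run for genes of this list. The MEFs + ALL + DMSO values that follow come from its single array, which carried B lymphoid signal. The part of leukemia cell RNA in them was not tested. In MEFs + ALL + DMSO 14 of the 68 were higher (20.6%, against 6.67% of probesets) and 1 lower (1.47%, against 3.59%), with a median of 0.05, among them Slc16a1 at 1.81 and the transferrin receptor gene Tfrc at 2.16. Of 14 further genes of oxygen sensing and the HIF complex 0 passed in any comparison, with adjusted p of at least 0.152.

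**Figure D4:**
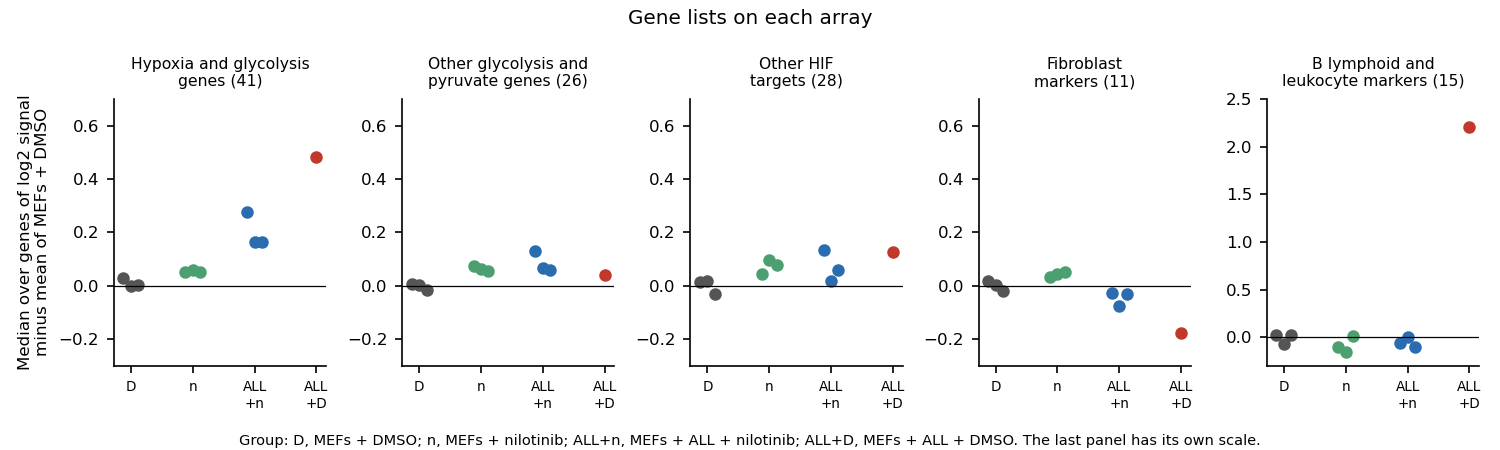
Median over the genes of each list of the log2 signal minus the mean of MEFs + DMSO, for each array (points, by group), in 5 lists (panels). The 41 hypoxia and glycolysis genes lie at 0.16 to 0.28 on the MEFs + ALL + nilotinib arrays and at 0.48 on the MEFs + ALL + DMSO array, and the wider lists stay closer to 0. The B lymphoid and leukocyte markers lie at 2.21 on the MEFs + ALL + DMSO array and at -0.16 to 0.03 on all others.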

How the data were processed

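RNA of MEFs on 10 Affymetrix Mouse Gene 1.0 ST arrays was analysed here. The deposited values are log2 signals, which the authors made by RMA; their notes name Partek, with no version given in the sources used here. The table holds 35557 probesets with 0 missing values, of which 21789 pair with 1 gene symbol in the array's annotation. Groups were compared with limma 3.58.1 under R 4.3.3, as 4 group means with a spread shared by all 10 arrays and 6 residual degrees of freedom. Adjusted p-values (Benjamini-Hochberg, all 35557 probesets) under 0.05 were called. Shares of members called are set against all probesets, of which 12147 have no symbol. Over the 19938 genes, each read by its brightest probeset, the shares called were larger in most comparisons, so the gaps to the members were smaller. In MEFs + ALL + nilotinib over MEFs + nilotinib 0.191% of these genes were called higher. Folds are 2 to the power of the log2 difference. The fit was tested on simulated data. Array values are printed for every member past the test in any comparison and for the 12 members with the largest difference in MEFs + ALL + nilotinib over MEFs + DMSO. The members and gene lists were chosen with earlier results of these data known. Alternatives were quantile normalization, centring, limma with trend and robust, array weights, no dim probesets, only the groups compared, no MEFs + ALL + DMSO array, a replicate block, the median of all probesets of a gene, and each replicate left out. The number of arrays limits the precision.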

Additional observations from a re-analysis of the deposited data

Results flagged for a closer look

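For 5 of 41 genes (12.2%, against 3.55% of probesets called lower) the effect of ALL cells under nilotinib differed from that under DMSO by limma's interaction test. The log2 difference of the effects was -1.81 for Egln3, -1.19 for Pdk1, -0.84 for Ankrd37, -0.62 for Car12 and -0.51 for Car9, each lower under nilotinib, with adjusted p from 0.0104 to 0.045. The calls of Egln3 and Car12 passed under all 15 alternatives, those of Pdk1 and Ankrd37 under 8 and that of Car9 under 5. Every one of these values rests on the single MEFs + ALL + DMSO array, which no alternative left out. On that array 14 of 15 B lymphoid and leukocyte markers were also higher than in MEFs + DMSO. The part of leukemia cell RNA in these values was not tested.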

How the results depend on the processing

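No result changed direction under any alternative run. In MEFs + ALL + nilotinib over MEFs + DMSO, where 2 members were called, limma with trend and robust called 6, array weights 13 and the fit without dim probesets 4, while the fit of only the groups compared called 0, and so did the replicate block. Leaving out 1 replicate gave 0 to 2. Over MEFs + nilotinib, centring gave 1, only the groups compared 0, the replicate block 0, and leaving out 1 replicate 0 to 2. The deviations of same-numbered arrays from their group means had correlations from -0.29 to 0.24. With 3 arrays in a group these are too few to decide whether the numbers mark a shared batch. Leaving out 1 replicate gave 13 to 15 members for MEFs + ALL + DMSO over MEFs + DMSO, 3 to 6 for the contrast of the co-cultures and 2 to 5 for the interaction. The contrast of the co-cultures had 8 calls with array weights and 0 with only the groups compared, and the interaction 3 after centring. In MEFs + nilotinib over MEFs + DMSO all alternatives called 0 members. All of these counts are of members only, without the calls over all probesets under the same alternative beside them. A change in a count is therefore not a result about these genes alone. The median of the members moved from 0.058 to 0.017 with quantile normalization and 0.077 with centring in MEFs + nilotinib over MEFs + DMSO, to 0.40 with quantile normalization in MEFs + ALL + DMSO over MEFs + DMSO, and to -0.21 with quantile normalization and -0.24 with array weights for the interaction. Without 1 replicate it ran from -0.28 to -0.19 between the co-cultures and from -0.33 to -0.22 for the interaction. The cause was not tested. Of the calls of single genes printed in the report, Slc16a3 and Pfkl over MEFs + DMSO each passed under 9 of 15 alternatives, over MEFs + nilotinib Slc16a3 under 7 and Pfkl under 8, and the interaction of Pdk1 and of Ankrd37 under 8 of 15.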
